A study of Mus musculus with 19 samples.

Results

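Transcripts of the interleukin-6 (IL-6) cytokine family were described in the suprarenal abdominal aorta (SRA) of 19 male mice, 24 h after the start of an infusion. The set held 10 genes of the 20408 in the table, chosen by name: the cytokines Il11, Il6 and Lif, the receptor chains Il11ra1, Il6ra, Il6st, Lifr and Osmr, the transcription factor Stat3 and its feedback inhibitor Socs3. All 10 were among the 14845 genes tested. Il11 was known, before these genes were chosen, to be among the larger rises with angiotensin II (Ang II) in control mice. The values of that comparison are therefore given as a description with no test for the 10 genes. The mice lacking IKKβ, which did not enter that comparison, carry the test of Ang II. The spread of each gene was estimated over all groups, so the control mice also shape the standard error and p of that test. The 10 genes were chosen with earlier results of these data known, so that test may not be independent of the choice.

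IKKβ is the kinase that activates the canonical NF-κB pathway and is encoded by Ikbkb. The IKKβ-/- mice carried SMA-CreERT2, a tamoxifen-inducible Cre driven by the Acta2 promoter, and homozygous floxed Ikkβ alleles, so that the deletion was aimed at vascular smooth muscle cells (VSMCs) and spared the other cells of the wall. The IKKβ+/+ littermates carried SMA-CreERT2 without the floxed alleles. All groups were ApoE-/- on a C57BL/6J background, were fed chow, received tamoxifen at 8 weeks of age and were infused by osmotic pump for 24 h. There were 5 IKKβ+/+ mice with Ang II, 5 IKKβ+/+ mice with saline, 5 IKKβ-/- mice with Ang II and 4 IKKβ-/- mice with saline. The labels give the dose as 500 to 1000 ng/min/kg, and the methods for these libraries as 1000 ng/min/kg.

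Cytokines of this family bind a specific receptor chain, such as IL-11 receptor alpha or IL-6 receptor alpha, and then a shared signalling chain encoded by Il6st. LIF and oncostatin M instead pair that chain with the receptors encoded by Lifr and Osmr. The complex activates JAK kinases, which phosphorylate STAT3. STAT3 induces SOCS3, which inhibits the receptor complex. In the vessel wall the family is known for acute phase and fibrotic responses, and IL-11 is known as a product of stromal and smooth muscle cells.

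Each mouse had from 11382573 to 19906694 reads on genes. In IKKβ-/- mice Ikbkb was 23.8% lower than in IKKβ+/+ mice (two-sided exact permutation test, p = 0.000152, n = 9 and 10). Smooth muscle markers were abundant in every mouse and fit the labelled tissue, with summed levels of 7 genes from 309043 to 646300 normalized counts. The 2 mesothelial markers measured summed to at most 23.4. Nerve and glia markers summed to 4461 in X2356 (IKKβ+/+, Ang II), against at most 1221 in any other mouse. Neutrophil markers summed to 698.7 in X2380 (IKKβ-/-, Ang II), against at most 334.1 in any other mouse. The part of these markers in the values of the 10 genes was not tested. Libraries X2385 (IKKβ-/-, Ang II) and X2406 (IKKβ-/-, saline) stood apart with 37.2% and 38.7% of their signal on mitochondrial genes, against 5.99% to 26.5% in the other 17. In bulk tissue, fewer cells of a type and less RNA per cell cannot be told apart. No batch is given in the labels, so a batch and the groups cannot be told apart either. The mice of a group were separate animals.

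Over all mice the cytokines lay at the lower end of the order of levels, with the receptor Il6ra close to Il11. Per kilobase of exon, the mean normalized count was 631.3 for Il6st, 514.3 for Il11ra1, 212.7 for Stat3, 109.3 for Lifr and 88.3 for Osmr. It was 77.3 for Socs3, 39.0 for Il6ra, 34.4 for Il11, 11.9 for Lif and 9.06 for Il6. The means of Il11 and Il6 rested on mouse X2358, without which they were 11.65 and 5.80. Neighbours in this order overlapped in their ranges over the mice throughout, so the order of adjacent genes is a description of the means. For Il11ra1 the level is uncertain, since 47.3% of the 84-base stretches of its longest transcript also occur in Il11ra2 and Gm13305. None of the other 9 genes shared such a stretch with another gene.

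**Figure D1:**
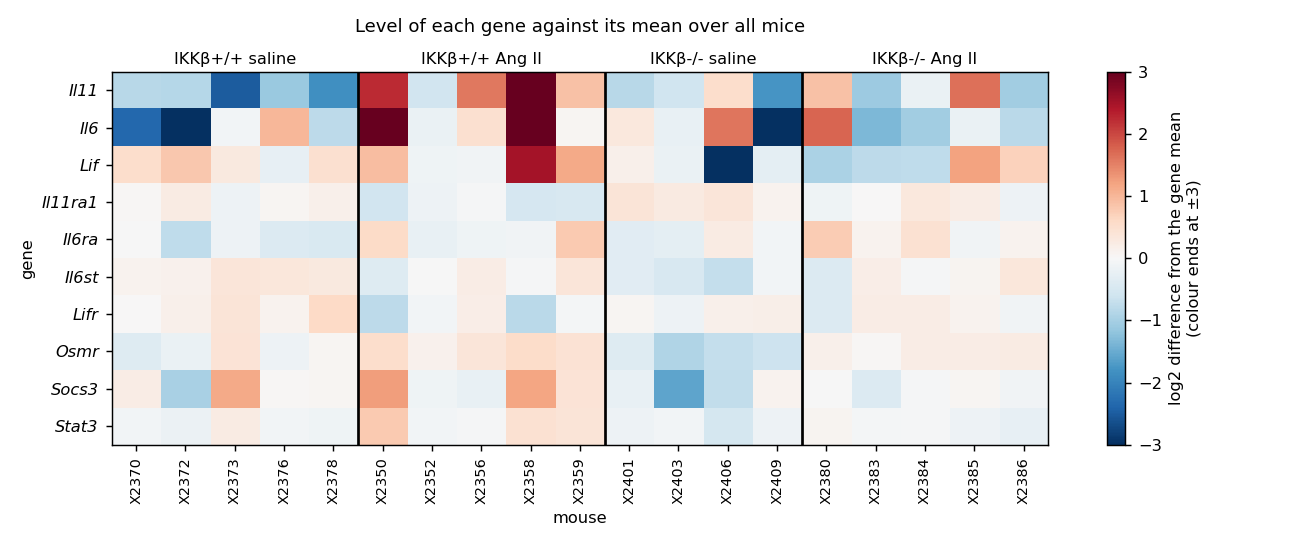
Level of each of the 10 genes in each of the 19 mice, as log2(normalized count + 1) less the average of the 19 mice for the gene, with colours ending at ±3 and mice ordered by group. The strongest red cells for Il11 and Il6 are those of mice X2350 and X2358 of the IKKβ+/+ group with Ang II. Paler red cells lie in other mice of both genotypes, such as X2356 and X2385 for Il11 and X2380 and X2406 for Il6. Osmr is blue in all 4 IKKβ-/- mice with saline.

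Il11 encodes IL-11. In IKKβ+/+ mice with Ang II it measured 96.4, 12.8, 60.3, 922 and 36.8 normalized counts in mice X2350, X2352, X2356, X2358 and X2359. With saline it measured 10.7, 10.3, 2.64, 8.55 and 4.78 in mice X2370, X2372, X2373, X2376 and X2378. Every Ang II-treated mouse lay above every saline-infused mouse, although X2352 did so narrowly and X2358 stood far above the rest. The log2 fold change was 3.35 ± 0.81 (SE). It was 2.45 without X2358 and 2.05 without both X2350 and X2358. Marker sums of muscle and the mitochondrial share also differed between these groups without overlap. The summed smooth muscle markers were 463497 to 646300 with Ang II and 333804 to 444461 with saline, those of skeletal muscle 219.4 to 494 and 64.6 to 196.3, and the mitochondrial share 10.1% to 14.1% and 5.99% to 9.07%. Of the 5 skeletal muscle markers tested, 4 had a log2 fold change above 0. Ckm averaged 228.9 normalized counts with Ang II and 29.0 with saline, and Mylpf 9.49 and 10.2. With the mitochondrial share as a covariate the log2 fold change of Il11 was 3.03, and the part of the muscle markers in it was not tested.

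For Il11 in IKKβ-/- mice the groups overlapped. With Ang II it measured 37.0, 8.73, 16.9, 64.2 and 8.997 normalized counts in mice X2380, X2383, X2384, X2385 and X2386, against 10.6, 12.6, 28.8 and 5.08 with saline in X2401, X2403, X2406 and X2409. The highest of the Ang II-treated mice, X2385, and the highest of the saline-infused mice, X2406, were the libraries with the largest mitochondrial shares. Its log2 fold change was 0.71 ± 0.86 (SE), with a 95% interval of -1.09 to 2.50 (adjusted p = 0.729).

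Il6 encodes IL-6 and was scarce in most mice. With Ang II it measured 115.7, 6.40, 10.97, 164.3 and 7.95 normalized counts in IKKβ+/+ mice X2350, X2352, X2356, X2358 and X2359. With saline it ranged from 0 to 16.1, with a median of 3.99, so the groups overlapped and the mean rested on X2350 and X2358. On the log2 scale the fold change was 2.74 ± 1.02 (SE), and 1.18 without these 2 mice. Il6 in IKKβ-/- mice ranged from 2.38 to 27.7 with Ang II and from 0 to 25.2 with saline. The log2 fold change there was 0.02 ± 1.08 (SE, adjusted p = 0.996), with an interval of -2.24 to 2.28, and its sign turned under several alternatives. The 2 mice with no Il6 read, X2372 and X2409, could each hide up to 3 reads, a floor for counting error only.

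Lif encodes leukemia inhibitory factor. In IKKβ+/+ mice it measured 69.6, 33.1, 34.0, 212.1 and 81.5 normalized counts with Ang II in X2350, X2352, X2356, X2358 and X2359, and 30.4 to 65.1 with saline. Again X2358 was the highest, and the groups overlapped. Its log2 fold change was 0.50 ± 0.78 (SE) and -0.07 without X2350 and X2358. Lif in IKKβ-/- mice ranged from 18.5 to 85.1 with Ang II and from 0 to 40.5 with saline (log2 fold change 1.27 ± 0.83 SE, adjusted p = 0.453). The value at 0 belonged to X2406, and without that mouse the log2 fold change was -0.01.

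**Figure D2:**
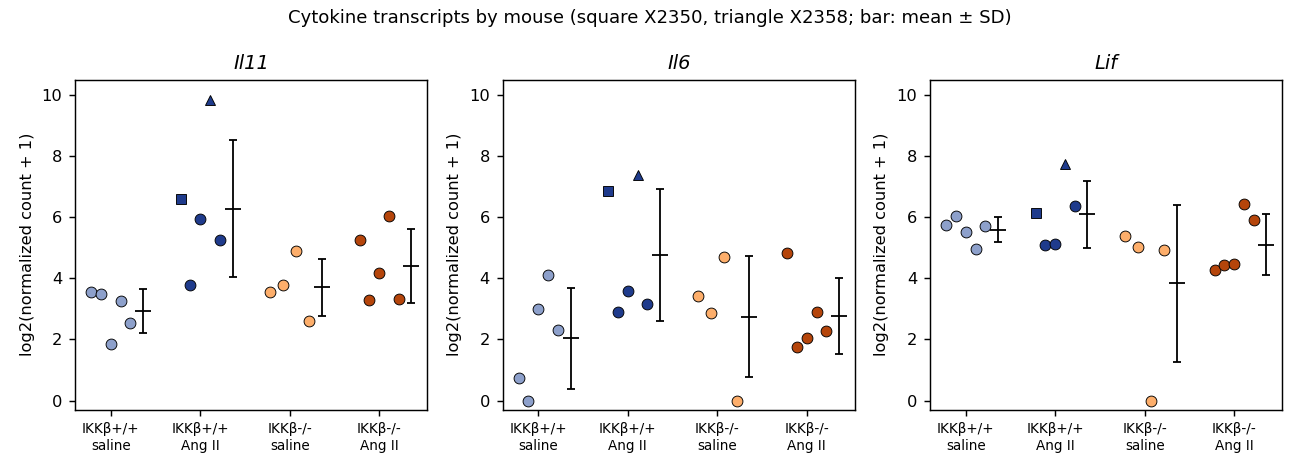
Il11, Il6 and Lif in each mouse on a log2(normalized count + 1) axis, by group, with the mean ± SD as a bar beside the points (n = 5, 5, 4 and 5). Mouse X2358 (triangle) is the highest of all mice for the 3 cytokines, at 922, 164.3 and 212.1 normalized counts, and X2350 (square) comes second for Il11 and Il6.

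The cytokines thus peaked in the same animal. X2358 was also the highest of the 19 mice for Osmr and the lowest for Lifr, while X2350 was the highest for Socs3 and Stat3 and the lowest for Il11ra1. Within their group these mice had the highest summed smooth muscle markers (615788 in X2350 and 646300 in X2358, against 463497 to 569840), the lowest fibroblast markers (77541 and 86780, against 102472 to 135535) and the lowest endothelial markers (9569 and 7856, against 14053 to 15602). The part of these marker differences in the cytokine values was not tested.

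The bases before the RefSeq start of these cytokine genes and of Socs3 are shown because IKKβ acts through NF-κB and because STAT3 acts on Socs3. They are given 5′ to 3′ on the strand of the gene (RefSeq, GRCm38.p6), ending before any exon annotated in Gencode M21. Capitals mark, on either strand, the NF-κB letters GGGNNTTTCC, the AP-1 letters TGANTCA and the STAT letters TTCNNNGAA, and no matches overlapped here. The coordinates are chr7:4778142-4778391 on the minus strand for Il11, chr5:30012864-30013113 on the plus strand for Il6, chr11:4257318-4257556 on the plus strand for Lif and chr11:117969452-117969616 on the minus strand for Socs3. The Il11 stretch lies before the more downstream of the 2 RefSeq starts of the gene and within an intron of a longer transcript. The Socs3 stretch also lies inside an intron. The Lif and Socs3 stretches hold 239 and 165 of the 250 bases and so stop short of the RefSeq start. Positions are counted from the RefSeq start.
Il11: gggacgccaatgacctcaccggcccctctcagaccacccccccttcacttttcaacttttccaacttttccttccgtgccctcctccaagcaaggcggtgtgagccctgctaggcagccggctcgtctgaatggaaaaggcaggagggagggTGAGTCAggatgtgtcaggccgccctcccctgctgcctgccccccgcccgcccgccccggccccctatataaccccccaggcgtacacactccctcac
Il6: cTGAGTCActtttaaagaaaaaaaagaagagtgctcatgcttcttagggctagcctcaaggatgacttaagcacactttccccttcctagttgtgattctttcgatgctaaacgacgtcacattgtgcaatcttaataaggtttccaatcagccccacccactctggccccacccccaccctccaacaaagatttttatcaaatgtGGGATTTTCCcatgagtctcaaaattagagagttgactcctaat
Lif: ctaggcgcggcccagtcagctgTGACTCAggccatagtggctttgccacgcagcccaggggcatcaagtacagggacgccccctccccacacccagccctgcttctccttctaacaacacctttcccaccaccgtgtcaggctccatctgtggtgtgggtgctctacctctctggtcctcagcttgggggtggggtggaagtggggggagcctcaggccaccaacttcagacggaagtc
Socs3: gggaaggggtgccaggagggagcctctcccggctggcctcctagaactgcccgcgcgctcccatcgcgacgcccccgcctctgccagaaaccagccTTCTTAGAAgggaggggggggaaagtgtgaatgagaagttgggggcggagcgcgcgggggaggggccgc

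Il11 held the AP-1 letters at bases 98 to 92 before the start. Il6 held the same letters at bases 249 to 243 and the NF-κB letters at bases 44 to 35. In Lif the AP-1 letters lay at bases 228 to 222, and in Socs3 the STAT letters lay at bases 154 to 146. Of all 32851 RefSeq windows of 250 bases before a start, 1.41% held the NF-κB letters, 6.75% the AP-1 letters and 7.02% the STAT letters. Among the 13 windows of the 10 genes, 1, 3 and 1 held them. Other forms of the sites were not searched, so a window without these letters may still hold a site. A match of letters is a description and does not show that a factor was bound.

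Among the receptors, Osmr, the oncostatin M receptor chain, was the member that passed the test in IKKβ-/- mice. With Ang II it measured 1147, 1056, 1192, 1190 and 1218 normalized counts in X2380, X2383, X2384, X2385 and X2386, and with saline 780.8, 551, 625.1 and 672.7 in X2401, X2403, X2406 and X2409. The groups did not overlap, and the Ang II-treated mice lay close together. Osmr rose with a log2 fold change of 0.83 ± 0.14 (SE), 1.78-fold, with an adjusted p of 0.00404 and an interval of 0.54 to 1.12. This was 1 of the 10 members in that comparison, against 5.29% of all genes past the threshold, 2.59% of all genes past it and higher, and 5.29% with groups that did not overlap. The threshold used throughout was a fold change over 1.2 together with an adjusted p below 0.1.

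Fat markers moved with this result. The summed level of 6 adipocyte markers was 2315 to 25079 in IKKβ-/- mice with Ang II and 1020 to 4241 with saline, and 4 of the 5 tested were past the threshold, namely Adipoq, Plin1, Cidec and Fabp4. The covariate for fat was the mean log2 level of the 5 tested adipocyte markers, each taken less its average over all mice. With this covariate, an alternative chosen after seeing the data, the log2 fold change of Osmr was 0.90 and its adjusted p 0.114. The count of all genes past the threshold fell from 785 to 11 in that fit. Without X2385 and X2406 Osmr kept a log2 fold change of 0.80 (adjusted p = 0.0298).

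In IKKβ+/+ mice Osmr measured 1482, 1124, 1327, 1511 and 1382 normalized counts with Ang II in X2350, X2352, X2356, X2358 and X2359, and 782, 891.6, 1376, 929.5 and 1078 with saline in X2370, X2372, X2373, X2376 and X2378. The saline-infused mouse X2373 lay within the Ang II-treated range. On the log2 scale the fold change was 0.45 ± 0.13 (SE). The difference of the Ang II effect between genotypes was 0.38 ± 0.19 (SE, interval -0.02 to 0.77, adjusted p = 0.461), so the effects of Ang II on Osmr were not shown to differ.

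With saline, Osmr was lower in IKKβ-/- than in IKKβ+/+ mice. The log2 fold change was -0.60 ± 0.14 (SE, adjusted p = 0.0464) and the 4 IKKβ-/- mice, at most 780.8 normalized counts, lay just below the lowest IKKβ+/+ mouse at 782. The same saline-infused IKKβ-/- mice enter the test of Ang II, so these results are not independent. With Ang II the genotypes were closer. The IKKβ-/- mice averaged 1161 ± 63.7 normalized counts of Osmr (SD, n = 5), and the IKKβ+/+ mice 1365 ± 154.1 (SD, n = 5, log2 fold change -0.23 ± 0.13 SE, adjusted p = 0.427).

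Il6st, the signalling chain shared by the family, was the other member lower with saline in IKKβ-/- mice. It measured 5428, 4917, 4147 and 6482 normalized counts in X2401, X2403, X2406 and X2409, against 7421, 7527, 8850, 8636 and 8381 in IKKβ+/+ mice X2370, X2372, X2373, X2376 and X2378. The groups did not overlap. Its log2 fold change was -0.65 ± 0.16 (SE), or 0.636-fold, with an adjusted p of 0.0525. In this comparison 2 of the 10 members were past the threshold, both lower, where 5.47% of all genes were past it and 2.07% were lower. Groups did not overlap in 8.76% of all genes.

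These calls rested on few libraries. Without X2385 and X2406, none of the 10 members was past the threshold with saline, at log2 fold changes of -0.55 for Il6st (adjusted p = 0.203) and -0.58 for Osmr (adjusted p = 0.16), and 19 of all genes were past it rather than 812. Leaving out X2403 or X2406 alone also gave 0 members, and without X2373 Il6st was not past it. Macrophage markers moved with the genotype too, with sums of 6 genes from 4006 to 5744 in saline-infused IKKβ-/- mice and from 6703 to 8749 in IKKβ+/+ mice. Adgre1 and Cd68 were past the threshold. The mitochondrial share was 8.89% to 38.7% in these IKKβ-/- mice and 5.99% to 9.07% in the IKKβ+/+ mice, and with it as a covariate no member was past the threshold, while the log2 fold changes were -0.54 for Il6st and -0.60 for Osmr.

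With Ang II, Il6st did not separate the genotypes. The IKKβ-/- mice averaged 7154 ± 1333 normalized counts (SD, n = 5), and the IKKβ+/+ mice 7114 ± 1368 (SD, n = 5, log2 fold change 0.01 ± 0.15 SE, interval -0.31 to 0.33, adjusted p = 0.985). Its log2 fold change with Ang II was 0.45 ± 0.16 (SE, adjusted p = 0.149) in IKKβ-/- mice and -0.22 ± 0.15 (SE) in IKKβ+/+ mice. The difference of these effects was 0.66 ± 0.22 (SE), with an unadjusted p of 0.0074 from limma and an adjusted p of 0.298.

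**Figure D3:**
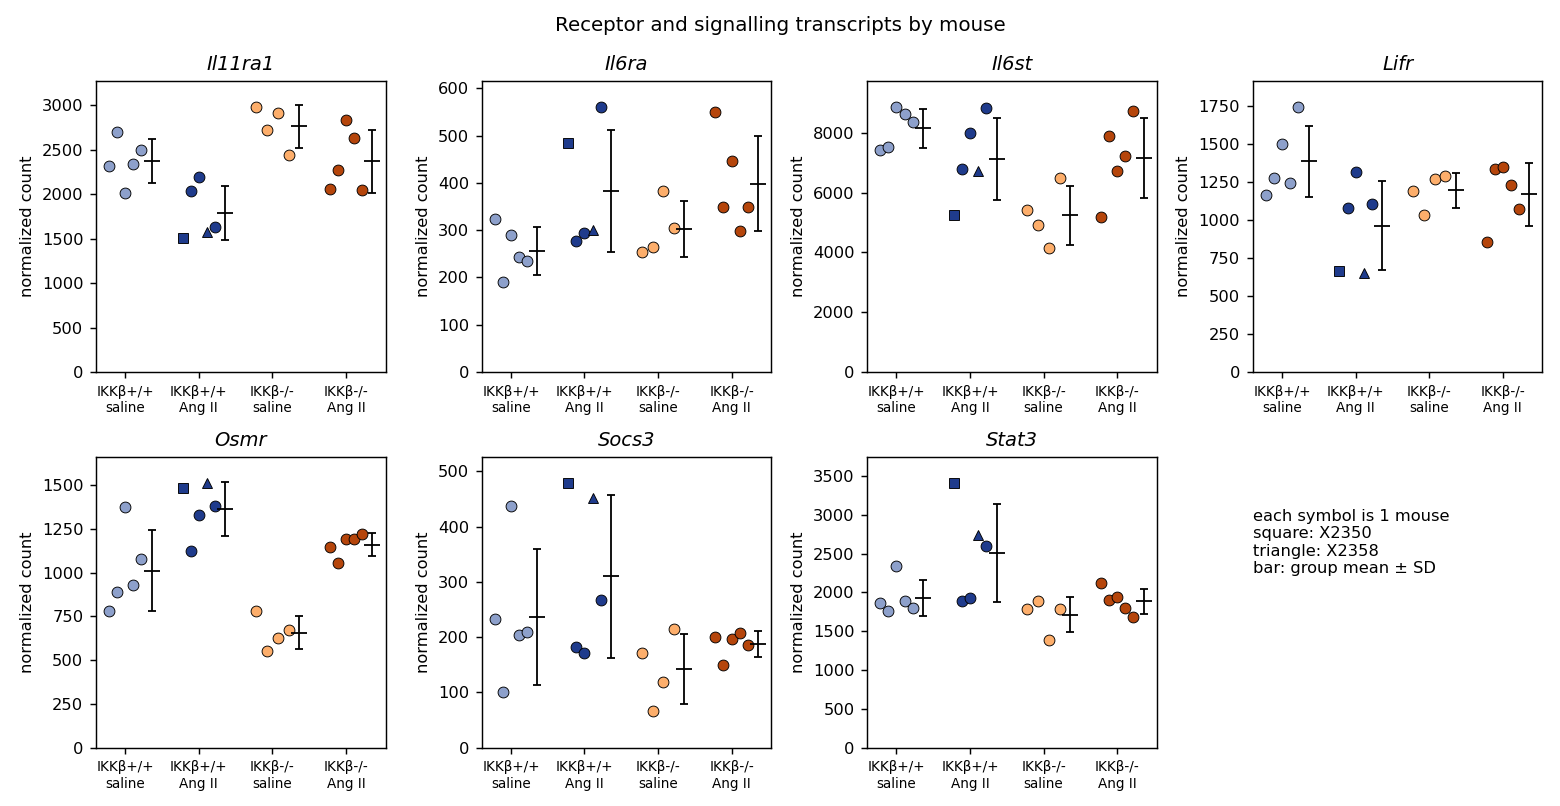
The 5 receptor chains, Socs3 and Stat3 in each mouse, as normalized counts on axes that start at 0, with the group mean ± SD as a bar (n = 5, 5, 4 and 5). The IKKβ-/- mice with saline lie lowest for Osmr (551 to 780.8) and below all IKKβ+/+ mice with saline for Il6st (4147 to 6482 against 7421 to 8850).

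Il11ra1, the specific receptor for IL-11, and Lifr, the receptor for LIF, were lower with Ang II in IKKβ+/+ mice. Il11ra1 measured 1506, 2035, 2191, 1579 and 1630 normalized counts with Ang II in X2350, X2352, X2356, X2358 and X2359, and 2317, 2693, 2016, 2343 and 2496 with saline. X2352 and X2356 lay above the lowest saline-infused mouse, so the groups overlapped. Its log2 fold change was -0.42 ± 0.12 (SE). Among IKKβ-/- mice the Ang II-treated animals averaged 2369 ± 351.6 (SD, n = 5) and the saline-infused mice 2761 ± 237.6 (SD, n = 4, log2 fold change -0.23 ± 0.13 SE, interval -0.50 to 0.04, adjusted p = 0.365).

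Lifr measured 666.2, 1077, 1316, 649.7 and 1108 normalized counts with Ang II in IKKβ+/+ mice X2350, X2352, X2356, X2358 and X2359, and 1165 to 1741 with saline. The lowest values were those of the mice highest in Il6, X2350 and X2358. On the log2 scale the fold change was -0.57 ± 0.18 (SE), and -0.24 without these mice. Lifr in the Ang II-treated IKKβ-/- mice averaged 1169 ± 206.9 (SD, n = 5), beside 1196 ± 116 in the saline-infused mice (SD, n = 4, log2 fold change -0.05 ± 0.19 SE, adjusted p = 0.932).

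Il6ra encodes the specific IL-6 receptor. It ranged from 277.5 to 559.6 normalized counts with Ang II and from 189.8 to 322.8 with saline in IKKβ+/+ mice, with X2350 and X2359 above the others and a log2 fold change of 0.54 ± 0.21 (SE). Among IKKβ-/- mice it ranged from 298.7 to 549.9 and from 253.8 to 383.7 (log2 fold change 0.38 ± 0.22 SE, adjusted p = 0.385). The groups overlapped in both genotypes.

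Stat3 and its target Socs3 did not pass the test in IKKβ-/- mice. Stat3 measured 3407, 1887, 1932, 2734 and 2599 normalized counts with Ang II in IKKβ+/+ mice X2350, X2352, X2356, X2358 and X2359, against 1764 to 2339 with saline (log2 fold change 0.35 ± 0.14 SE). X2352 and X2356, the mice lowest in Socs3, stayed within the saline range. Stat3 in IKKβ-/- mice ranged from 1679 to 2117 with Ang II and from 1387 to 1888 with saline (log2 fold change 0.14 ± 0.15 SE, adjusted p = 0.67).

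Socs3 measured 478.8, 181.5, 171.1, 451.9 and 267.4 normalized counts in the same Ang II-treated IKKβ+/+ mice, and 101.6 to 437.9 with saline, where X2373 was the highest. The log2 fold change was 0.40 ± 0.35 (SE) and -0.07 without X2350 and X2358. Socs3 in IKKβ-/- mice was even among the Ang II-treated animals, at 149.2 to 207.1, and spread from 66.4 to 214.1 with saline (log2 fold change 0.51 ± 0.38 SE, adjusted p = 0.521).

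The median log2 fold change of the 10 members with Ang II was 0.43 in IKKβ+/+ mice, against 0.01 over all genes. It was 0.40 for the 9 members other than Il11, and the groups overlapped in each of those 9. Il11 was the member whose groups did not overlap, as in 8.42% of all genes. Its rise was known before the genes were chosen, so these values are a description. The median in IKKβ-/- mice was 0.41, against -0.00 over all genes.

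With Ang II, none of the 9 members other than Il11 differed past the threshold between the genotypes, where 0.128% of all genes did. Groups did not overlap in 1.54% of all genes and in 0 members. Limma gave an unadjusted p under 0.05 for 2 of the 9, Il11ra1 and Stat3, where 14.3% of all genes reached it. DESeq2 called 1 of the 9, Il11ra1, and 521 of all genes. Il11 was lower in IKKβ-/- mice by a log2 fold change of -1.88 ± 0.81 (SE), on values of which the IKKβ+/+ part had chosen the gene, so no test is given. Il11ra1 was 0.41 ± 0.12 higher (SE, adjusted p = 0.177) and Stat3 was lower, at -0.38 ± 0.14 (SE, adjusted p = 0.24). The same Ang II-treated IKKβ+/+ mice enter this comparison and that of Ang II in IKKβ+/+ mice.

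None of the 9 members other than Il11 passed the test of the difference between the Ang II effects, at an unadjusted p under 0.05 for 1 of them, and neither did any of the 14845 genes with limma (0%), while 1654 had an unadjusted p under 0.05. DESeq2 called 279 and edgeR 3. For Il11 the difference, IKKβ-/- minus IKKβ+/+, was -2.64 ± 1.18 (SE), given with no test. For Il6 it was -2.72 ± 1.49 (SE, interval -5.83 to 0.38, adjusted p = 0.491), and for Lifr 0.52 ± 0.26 (SE, interval -0.03 to 1.07, adjusted p = 0.467).

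**Figure D4:**
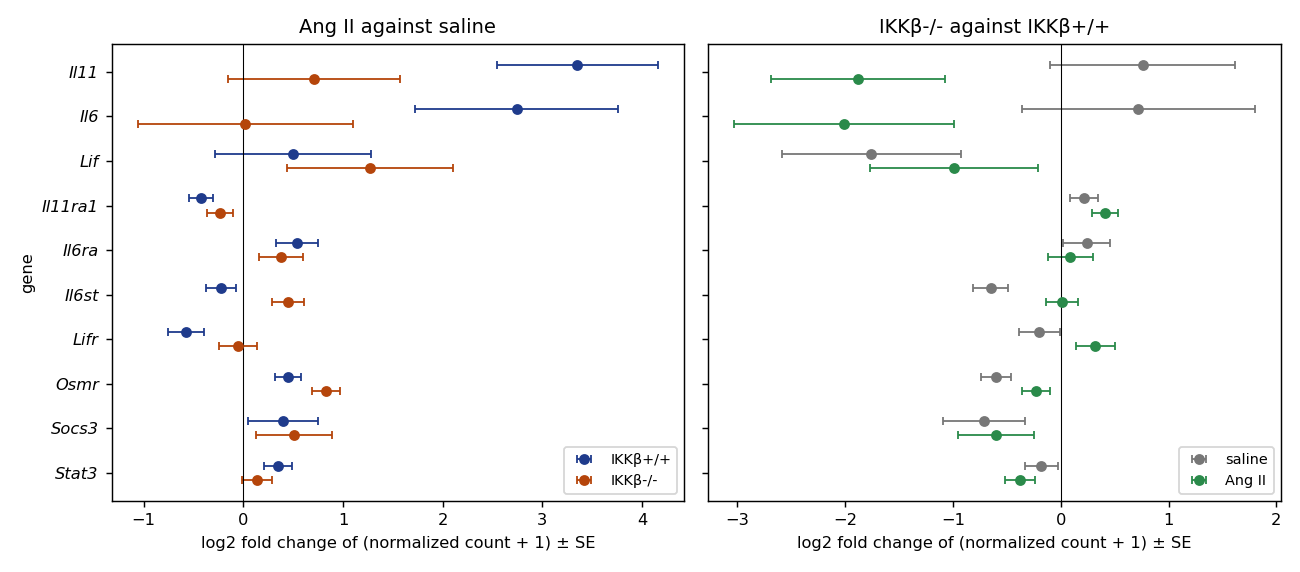
Log2 fold change of (normalized count + 1) ± SE for the 10 genes, with Ang II against saline in each genotype at the left and IKKβ-/- against IKKβ+/+ with each infusion at the right. The bars of Il11, Il6 and Lif are wide (SE 0.81, 1.02 and 0.78 with Ang II in IKKβ+/+ mice) while those of the receptors are narrow, as for Osmr at 0.45 ± 0.13 and 0.83 ± 0.14.

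The other genes of the pathway were taken from fixed lists of ligands, receptors, kinases, inhibitors and targets, of which 65 were tested. The lists were chosen with earlier results of these data known. With Ang II, 12 rose and 4 fell in IKKβ+/+ mice, where 8.66% of all genes were past the threshold, 4.33% in each direction. In IKKβ-/- mice 9 rose and 0 fell, where 5.29% of all genes were past it. The median log2 fold change was 0.06 and 0.08, against 0.01 and -0.00 over all genes.

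Among the ligand genes, Clcf1, which encodes a cytokine of the family, was highest in X2350, at 470.2 normalized counts, with 70.2 to 162.4 in the other Ang II-treated IKKβ+/+ mice and 52.9 to 91.7 with saline, and it did not pass the test (log2 fold change 1.07 ± 0.42 SE, adjusted p = 0.157). Osm, the ligand of the Osmr chain, was too low to be tested, with 25.8 normalized counts in X2358 and at most 5.79 in any other mouse. Ebi3, a subunit of the heterodimeric cytokine IL-27, fell in IKKβ+/+ mice. It averaged 13.3 ± 4.09 normalized counts in saline-infused mice (SD, n = 5) and 2.76 ± 1.98 in Ang II-treated mice (SD, n = 5) (log2 fold change -2.11 ± 0.59 SE, adjusted p = 0.047). It rests on at most 24 reads in a mouse, and the call was lost without X2358.

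Adam10 and Adam17, proteases that shed membrane receptors of the family, fell with Ang II in IKKβ+/+ mice, at log2 fold changes of -0.50 ± 0.12 (SE, adjusted p = 0.0214) and -0.38 ± 0.12 (SE, adjusted p = 0.0678). Both calls were lost without X2350 and X2358 together, and that of Adam17 held in 3 of the 10 fits that each left out 1 mouse, those without X2352, X2356 or X2359. None of the 9 JAK kinases and other STATs and none of the 17 inhibitors and phosphatases passed the test with Ang II in either genotype. An unadjusted p under 0.05 was reached by 2 and 3 of them in IKKβ+/+ mice and by 1 and 3 in IKKβ-/- mice, where 20.3% and 17.8% of all genes reached it. With saline, Ptpn6, which encodes a phosphatase abundant in blood cells, was lower in IKKβ-/- than in IKKβ+/+ mice (log2 fold change -1.17 ± 0.33 SE, adjusted p = 0.0736), beside the lower macrophage markers given above. Adam17 was lower as well (-0.54 ± 0.12 SE, adjusted p = 0.0475). With 1 mouse left out the call of Ptpn6 held in 2 of 9 fits, those without X2378 or X2409, with a log2 fold change of -0.67 without X2401, and that of Adam17 held in 6, failing without X2373, X2403 or X2406.

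Genes listed as STAT3 targets made up 30 of those tested. With Ang II, 11 of the 30 rose and 1 fell in IKKβ+/+ mice, against 4.33% of all genes in each direction. In IKKβ-/- mice 8 rose and 0 fell, against 2.59% of all genes higher. Their median log2 fold change was 0.51 and 0.25, against 0.01 and -0.00 over all genes. Many of these genes also answer to other pathways, so the list does not single out STAT3. It was chosen with earlier results of these data known, so its counts beside those of all genes are a description.

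In IKKβ+/+ mice the largest rises were those of Hp (log2 fold change 2.74 ± 0.87 SE, adjusted p = 0.0747), Serpina3m (2.72 ± 0.68 SE, adjusted p = 0.0299), Lcn2 (2.15 ± 0.52 SE, adjusted p = 0.0258) and Timp1 (1.68 ± 0.36 SE, adjusted p = 0.015). Hp encodes haptoglobin, Serpina3m an acute phase protease inhibitor, Lcn2 the iron-carrier binding protein lipocalin-2 and Timp1 an inhibitor of metalloproteinases. The lists also held rises of Serpina3n, Myc, Cebpb, Cebpd, Cdkn1a, Il4ra and Sbno2. Fgl2 fell (-0.61 ± 0.20 SE, adjusted p = 0.09). Without X2350 and X2358 no STAT3 target was past the threshold in IKKβ+/+ mice. Removal of X2358 alone ended the calls of Hp, Myc, Il4ra, Fgl2, Sbno2 and Serpina3m.

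In IKKβ-/- mice the largest rises were Lcn2 (log2 fold change 4.44 ± 0.55 SE, adjusted p = 0.000553), Hp (4.37 ± 0.92 SE, adjusted p = 0.0151), Serpina3m (3.53 ± 0.72 SE, adjusted p = 0.0136), Serpina3n (2.55 ± 0.38 SE, adjusted p = 0.0022) and Lrg1 (2.21 ± 0.64 SE, adjusted p = 0.0675). Lcn2 went from 0 to 4.83 normalized counts with saline to 17.5 to 98.0 with Ang II, so its fold change rests on few reads in the saline-infused mice. Hp went from 14.5 to 79.0 with saline to 137.3 to 4411 with Ang II. With the adipocyte covariate Lcn2 was the pathway gene past the threshold. Its log2 fold change lay between 3.19 and 4.91 over all alternatives, and that of Hp went down to 1.1. Pim1, Il4ra and Sbno2 rose as well. The calls of Lrg1, Pim1 and Sbno2 were lost when X2385, X2401 or X2406 alone was left out. Serpina3m and Serpina3n belong to a family of similar genes, between which reads may be split.

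Il4ra, which encodes a chain of the interleukin-4 receptor, rose in both genotypes without overlap. The IKKβ+/+ mice averaged 613.2 ± 85.6 normalized counts when treated with Ang II (SD, n = 5) and 425.9 ± 42.8 when not (SD, n = 5). The corresponding means were 497.5 ± 109.1 (SD, n = 5) and 249.6 ± 48.0 (SD, n = 4) in IKKβ-/- mice. With saline it was lower in IKKβ-/- mice (log2 fold change -0.78 ± 0.16 SE, adjusted p = 0.0367), as were Lcn2 (-2.16 ± 0.55 SE, adjusted p = 0.0563) and Il1r1 (-0.48 ± 0.15 SE, adjusted p = 0.0896), while Cebpd was higher (0.76 ± 0.22 SE, adjusted p = 0.0784). Without X2406 alone each of these 4 calls was lost, and without X2385 and X2406 none of the other pathway genes was past the threshold in that comparison. With Ang II the genotypes differed in none of the 65 genes with limma, where 0.128% of all genes did. DESeq2 called 7 of the 65 and 521 of all genes. An unadjusted p under 0.05 from limma was reached by 16 of the 65 (24.6%) and by 14.3% of all genes.

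**Figure D5:**
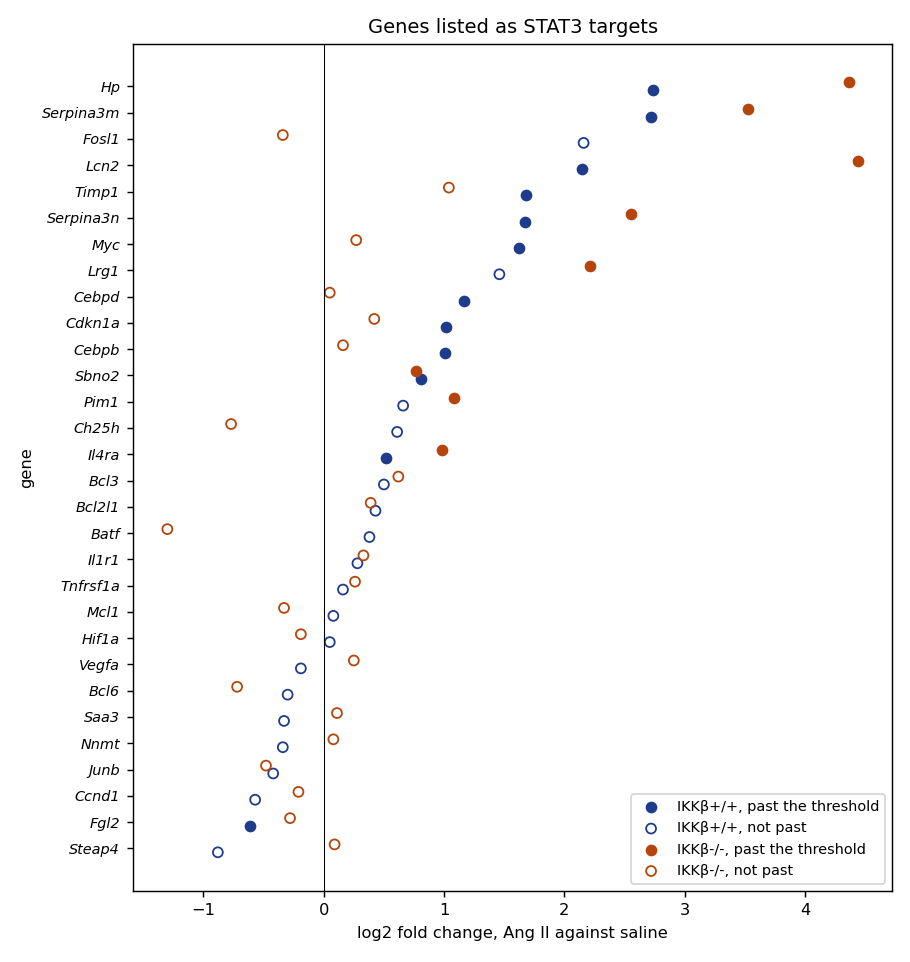
Log2 fold change with Ang II of the 30 tested genes listed as STAT3 targets, in IKKβ+/+ (blue) and IKKβ-/- mice (orange), filled where past the threshold and ordered by the value in IKKβ+/+ mice. Hp, Serpina3m, Serpina3n, Lcn2, Il4ra and Sbno2 are filled in both genotypes, and Lcn2 and Hp reach 4.44 and 4.37 in IKKβ-/- mice.

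The 5 genes most like Il11 over the 19 mice, by Pearson's r of log2 values, included Cstb (0.86), Timp1 (0.86), Txn1 (0.85) and Rdh10 (0.84). The points share their groups and 2 extreme libraries. Without X2358, 1 of these 5 stayed among the first 5, and by rank correlation none did. For Socs3 they were Wdr36 (0.81), Eaf1 (0.80), Ascc3 (0.80), Ddx19b (0.79) and Arfgef2 (0.79), of which 0 stayed without X2350. These correlations describe the libraries and carry no test.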

How the data were processed

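RNA-Seq was read from 1 table of 19 mice. Per the labels and the study's methods, the authors prepared stranded poly(A) libraries and sequenced single reads of 84 bases. They trimmed with Trimmomatic 0.35, aligned to GRCm38 with STAR 2.7.1a and normalized gene counts with DESeq2 1.30.1. The authors deposited these DESeq2-normalized counts, a signal in which reads are divided by the size factor of the mouse. All values (100%, tolerance 0.01) were whole multiples of 1 read, so reads were recovered for the count tests.

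Genes that reached 10 normalized counts in 4 or more mice were fitted as log2(normalized count + 1) with limma 3.58.1 (R 4.3.3), as 4 group means with a trend, checked on simulated data. Tests were two-sided, with Benjamini-Hochberg adjustment over 14845 genes. The pseudocount pulls fold changes of low genes toward 0. The depth, 11382573 to 19906694 reads, limits the precision of Il6 and Il11. No duplicate library was found among 36 pairs of mice.

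The members and lists were chosen with earlier results of these data known. All members were named, and of the other pathway genes up to the 5 largest rises and falls past the threshold in a comparison, others of a list by name; Clcf1, Osm and the marker genes were named after their values were seen. Some genes that this rule names are not reported here, though they remain in the counts. Alternatives were a pseudocount of 4, no filter, fewer groups, array weights, TMM scaling, edgeR 4.0.16, DESeq2 1.42.0, stricter thresholds and each mouse left out.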

Additional observations from a re-analysis of the deposited data

Results flagged for a closer look

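Single mice stood apart by Dixon's test in 4 of the 44 gene and group combinations examined. It was run on normalized counts and not on the log2 values used elsewhere. Its chance rate of about 1 in 20 holds for normally distributed values, and skewed counts can be flagged more often. The flags are therefore a description of single mice and no test of Ang II. Il11 measured 922 normalized counts in mouse X2358 of the Ang II-treated IKKβ+/+ group, with the next mouse at 96.4. In the same mouse Lif measured 212.1, with the next at 81.51. Il6 measured 27.72 in mouse X2380 of the Ang II-treated IKKβ-/- group, with the next at 6.423. Stat3 measured 2339 in mouse X2373 of the saline-infused IKKβ+/+ group, with the next at 1888.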

How the results depend on the processing

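No paired analysis was possible because the mouse numbers in the labels are not shared between groups. TMM scaling moved no median log2 fold change over all genes by more than 0.1 and turned no direction. All counts below are of features past the threshold, and the cause of each change was not tested unless fewer mice entered the fit. Leaving out X2350 with X2358 or X2385 with X2406, and the adipocyte and mitochondrial covariates, were chosen after seeing the data.

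For Ang II in IKKβ+/+ mice, where 16 other pathway genes and 1286 of all genes were past the threshold and members were not counted because that comparison carries no test of them, array weights gave 2074 of all genes. An adjusted p under 0.05 gave 638 of all genes, and a fold change above 1.5 gave 752. Without X2350 and X2358, 1 other pathway gene and 33 of all genes were past it, and Lif and Socs3 turned to -0.07 each. Leaving out 1 mouse at a time gave 8 to 19 other pathway genes and 428 to 1915 of all genes.

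For Ang II in IKKβ-/- mice, with 1 member, 9 other pathway genes and 785 of all genes, DESeq2 gave 2 members. Only the groups compared gave 295 of all genes. An adjusted p under 0.05 gave 5 other pathway genes and 412 of all genes. Without X2385 and X2406 there were 5 other pathway genes and 296 of all genes, and the log2 fold change of Lif was -0.34. The adipocyte covariate gave 0 members, 1 other pathway gene and 11 of all genes. The log2 fold change of Il6, 0.02 as reported, was -0.13 with a pseudocount of 4, -0.09 with array weights, -0.05 with edgeR, -0.21 with DESeq2 and -0.12 with the mitochondrial covariate. Leaving out 1 mouse gave 1 to 2 members, 5 to 12 other pathway genes and 435 to 1082 of all genes, with Il6 between -0.90 and 0.67, Lif between -0.01 and 1.78 and Lifr between -0.11 and 0.06.

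For the genotypes with saline, with 2 members, 6 other pathway genes and 812 of all genes, the counts of all genes and other pathway genes were 1420 and 11 with only the groups compared. Array weights gave 1902 and 13, and DESeq2 gave 1437 and 10. An adjusted p under 0.05 gave 1 member, 2 other pathway genes and 136 of all genes, and a fold change above 1.5 gave 504. Without X2385 and X2406 there were 0 members, 0 other pathway genes and 19 of all genes. The adipocyte covariate gave 512 of all genes. The mitochondrial covariate gave 0 members, 0 other pathway genes and 31 of all genes, with Il11 at -0.13 and Il6 at -0.12. Leaving out 1 mouse gave 0 to 2 members, 0 to 11 other pathway genes and 24 to 1726 of all genes.

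For the genotypes with Ang II, with 0 members other than Il11, 0 other pathway genes and 19 of all genes, DESeq2 gave 1, 7 and 521. Only the groups compared gave 1 of all genes. An adjusted p under 0.05, the adipocyte covariate, the mitochondrial covariate and the removal of X2350 and X2358 each gave 0, and the removal of X2385 and X2406 gave 6. Without X2350 and X2358 the log2 fold changes were -0.15 for Il6st and -0.01 for Lifr. Leaving out 1 mouse gave 0 to 2 members, 0 to 5 other pathway genes and 0 to 553 of all genes, with Il6ra between -0.04 and 0.24 and Il6st between -0.10 and 0.12.

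For the difference between the Ang II effects, with 0 of all genes, array weights gave 76, edgeR 3, DESeq2 279 with 2 other pathway genes, the mitochondrial covariate 15 and the removal of X2385 and X2406 3. The difference for Lif was -0.18 with DESeq2, -0.22 with edgeR and -0.84 without X2385 and X2406. It was 0.06 for Il6ra without X2385 and X2406 and 0.01 for Stat3 without X2350 and X2358. Leaving out 1 mouse gave 0 to 79 of all genes and 0 to 1 other pathway genes, with Lif between -0.51 and 1.29 and Socs3 between -0.21 and 0.37.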
